A study of Mus musculus with 5 samples.

Results

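The 10 genes described here control the number of mitochondria and the defence against reactive oxygen species: Ppargc1a, Ppargc1b, Nrf1, Tfam, Nfe2l2, Keap1, Sod1, Sod2, Hmox1 and Nqo1. They were chosen by name, 10 of the 22380 protein-coding genes of the GENCODE vM1 mouse annotation. A peak of acetylation of lysine 9 on histone H3 (H3K9ac), a mark of active promoters and enhancers, was counted for a gene when no more than 10 kb separated its centre from one of the transcript starts annotated for that gene. By this rule the genes held 31 peaks after treatment with 4-deoxypyridoxine (DOP) and 29 peaks with vehicle.

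PGC-1α and PGC-1β, encoded by Ppargc1a and Ppargc1b, are coactivators that switch on genes of mitochondrial respiration together with factors such as nuclear respiratory factor 1, encoded by Nrf1, one of whose targets is Tfam, the factor that packages and transcribes mitochondrial DNA. NRF2, encoded by Nfe2l2 and not related to nuclear respiratory factor 1, is bound by KEAP1 and marked for degradation until oxidants release it, whereupon it binds antioxidant response elements at genes such as Hmox1 and Nqo1. Reduced PGC-1α activity and oxidative damage in the striatum are long-known features of Huntington's disease.

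The cells were striatal progenitor cells of 1 conditionally immortalized mouse line of C57BL/6 background, homozygous for mutant huntingtin with an expanded CAG repeat (STHdhQ111/Q111). All were kept for 24 h in medium without serum, with the DPBS vehicle alone (Q111 SST, 2 replicates) or with 4 mM DOP, an inhibitor of sphingosine-1-phosphate lyase (Q111 DOP, 2 replicates), and the comparison asked whether H3K9ac at genes differed once the lyase was inhibited. 1 library made with normal rabbit IgG from serum-starved cells and the cells with wild-type huntingtin were not analysed here. Each condition had 1 list of peaks and no list per replicate, so no error between replicates was available, and the differences below are descriptions of the 2 lists without a test.

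The DOP-treated list held 34286 peaks and the vehicle list 33355, each an interval of 200 bp with a score whose definition is not given in the sources used here. The study reports fewer peaks for both conditions and compared them after normalizing peak intensities, which was not done here. Scores had a median of 419 with DOP and 400 with vehicle. They were used as a percentile within their own list and also, without scaling between the lists, as scores and sums per gene. Ratios of these sums therefore carry any difference between the lists in the level of their scores. A peak was called shared when its interval overlapped one of the other list by at least 1 bp, which held for 27425 DOP-treated and 27791 vehicle peaks. Of the neural progenitor markers examined, 5 had a DOP-treated peak (Vim, Hes1, Msi1, Dlx1 and Dlx2) and 4 a vehicle peak (the same without Dlx2), while Nes, Sox2, Pax6 and Gsx2 had none in either list. Of the mature striatal neuron markers 1 of 6, Ppp1r1b, had a peak in both lists. Peaks also lay near 2 of 4 glial markers with DOP (Mbp and Mog) and 1 of 4 with vehicle (Mog). Near immune markers they lay at 2 of 3 in both lists (Cd68 and Aif1). Over all protein-coding genes, 57.7% had a DOP-treated peak and 56.9% a vehicle peak within 10 kb. A peak may count for several genes, and whether the markers' peaks lay nearer to another gene was not examined. The peaks near marker genes thus did not set the cells apart as progenitors.

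All 10 genes had a peak in both lists, where 57.7% of all protein-coding genes had a DOP-treated peak, 56.9% a vehicle peak and 55.3% both, and where 6.76% of the genes with any peak had peaks in 1 list only. Per gene the median was 3 peaks in each list, as it was over all genes with a peak. Of the DOP-treated peaks 25 of 31 and of the vehicle peaks 24 of 29 lay within 1 kb of a start of their own gene, and 20 in each list lay downstream of the nearest start. Introns held 18 DOP-treated and 19 vehicle peaks, untranslated regions 3 and 3, coding exons 1 and 1, and 9 and 6 lay outside the gene. Peaks further than 10 kb from a start were not counted, so these positions describe the window and not the whole gene. The same positions were not counted over all genes, so they are not shown to be particular to these 10.

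Most of these peaks were found in both lists. Of the DOP-treated peaks, 5 of 31 (16.1%, 95% Wilson interval 7.09% to 32.6%) were in that list only, where the share was 16.2% over all DOP-treated peaks near a gene. Of the vehicle peaks, 2 of 29 (6.90%, 1.91% to 22.0%) were in that list only, against 13.3% of all vehicle peaks near a gene. The intervals take the peaks as independent, which neighbouring peaks of 1 gene are not. Ppargc1a alone held 2 of the DOP-only peaks and 1 of the vehicle-only peaks. The intervals may thus be too narrow even for counting error, and they do not cover replicate error. The shares over all peaks near a gene lie inside them, which is not a test. Centres of the shared peaks lay a median of 28.0 bp from the nearest centre of the other list for DOP-treated and 30.0 bp for vehicle peaks. A DOP-only peak occurred at 4 genes (Ppargc1a, Ppargc1b, Keap1 and Sod1) and a vehicle-only peak at 2 (Ppargc1a and Sod1), where such peaks occurred at 37.7% and 32.1% of all genes with a peak in the list. Every peak was shared at 6 of the 10 genes (Nrf1, Tfam, Nfe2l2, Sod2, Hmox1 and Nqo1) and at 45.8% of all genes with peaks in both lists.

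**Figure D1:**
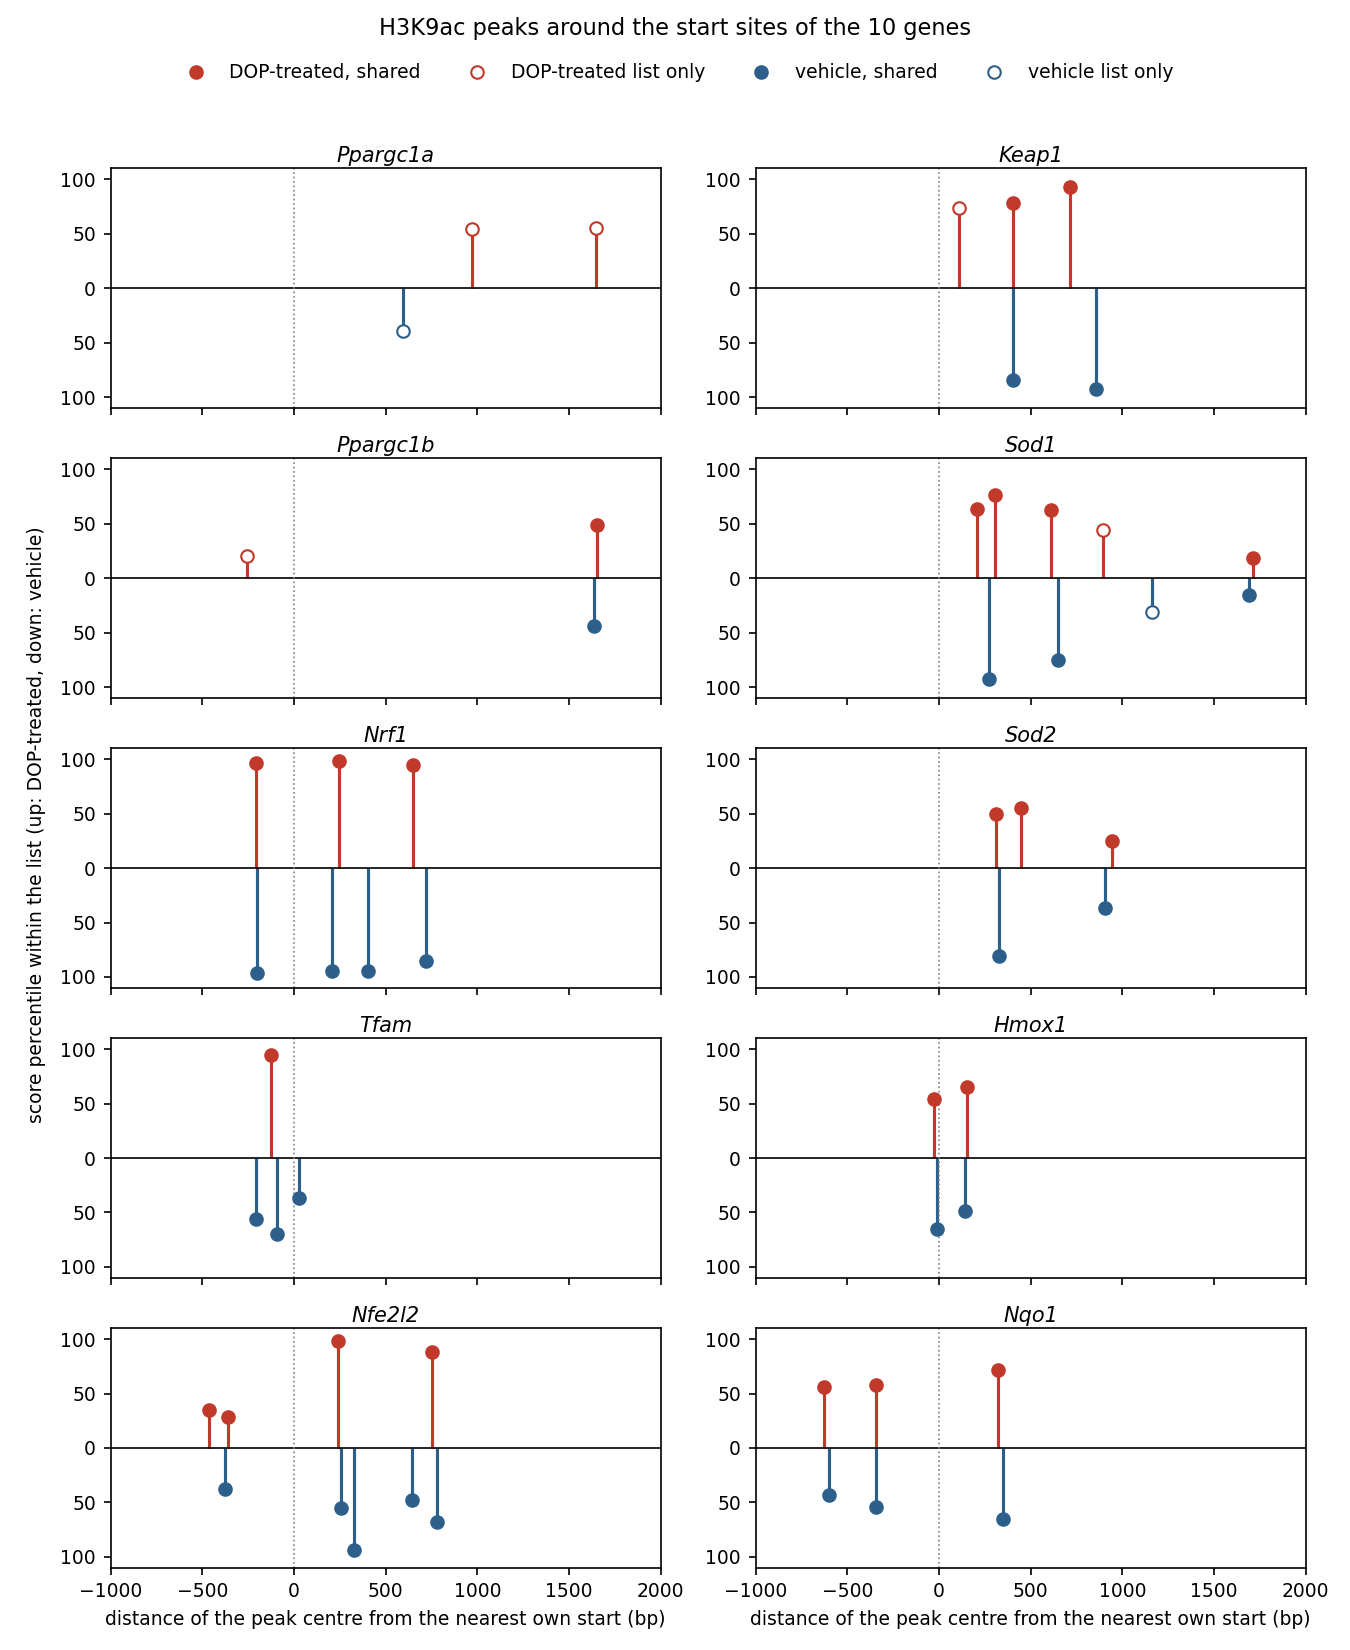
Each panel shows 1 gene, with the distance of each peak centre from the nearest start of that gene in bp on the x axis (negative is upstream) and the percentile of its score within its list on the y axis, DOP-treated peaks upward in red and vehicle peaks downward in blue, filled where shared and open where found in 1 list only. Ppargc1a has only open symbols, 2 with DOP and 1 with vehicle, Nrf1 has tall bars in both lists, and the upstream peaks of Hmox1 beyond 4 kb fall outside the plotted range.

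Ppargc1a, the gene of the coactivator PGC-1α, was the only member without a shared peak and had the highest ratio of summed scores between the lists. The gene (ENSMUSG00000029167.7, mm9 chr5:51845488-51958964, minus strand) had 2 DOP-treated peaks, 970 and 1647 bp downstream of the nearest start, with scores of 456 (percentile 54.0) and 464 (percentile 54.8). Its only vehicle peak lay 597 bp downstream of that start, with a score of 306 (percentile 39.0). No peak of the one list overlapped a peak of the other, and the centres nearest to each other were 373 bp apart. Among all genes with peaks in both lists, 0.461% (57 of 12375) likewise shared none. This share runs over genes with any number of peaks and was not computed for genes with as few as Ppargc1a. The pair of intervals nearest to each other, the DOP-treated peak of score 456 and the vehicle peak, is printed on the strand of the gene, with the GC box in capitals, a GGGCGG motif in either orientation that is bound by SP factors.
Ppargc1a, DOP-treated peak nearest the start, chr5:51944027-51944226, minus strand: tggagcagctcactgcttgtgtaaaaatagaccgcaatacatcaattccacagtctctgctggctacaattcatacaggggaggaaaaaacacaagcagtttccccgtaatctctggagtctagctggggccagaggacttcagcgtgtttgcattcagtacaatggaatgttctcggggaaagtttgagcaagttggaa
Ppargc1a, vehicle peak, chr5:51944400-51944599, minus strand: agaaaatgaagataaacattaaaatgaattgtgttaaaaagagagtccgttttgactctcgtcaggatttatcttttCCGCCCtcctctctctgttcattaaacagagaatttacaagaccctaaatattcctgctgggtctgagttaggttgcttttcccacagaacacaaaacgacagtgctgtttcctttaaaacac
Both intervals lay in an intron of the annotated gene. The gene has 4 annotated starts, and these peaks lay near the inner pair, since the first start was 13804 bp further upstream of Ppargc1a-001 and its nearest peak was 14838 bp away with DOP and 14465 bp with vehicle. No peak in either list lay within 10 kb of that first start. The summed score over the peaks was 920.0 with DOP (2 peaks over 400 bp, mean 460) and 306.0 with vehicle (1 peak over 200 bp, mean 306), a ratio of 3.01 that stood at percentile 99.7 of the ratios of 12375 genes. With a window of 1 kb the second DOP-treated peak dropped out and the ratio was 1.49. Had peaks with centres within 500 bp counted as shared, the vehicle peak and the nearer DOP-treated peak would have been a shared pair.

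Ppargc1b, the gene of the related coactivator PGC-1β (ENSMUSG00000033871.8, mm9 chr18:61457790-61560085, minus strand), had a shared peak in an intron. It lay 1651 bp downstream of the nearest start with DOP (score 403, percentile 48.3) and 1635 bp downstream with vehicle (score 350, percentile 44.4). A second peak, 255 bp upstream of the first start, was in the DOP-treated list only and had a score of 179 (percentile 20.6). The nearest vehicle peak was 1921 bp away. This made Ppargc1b the only member with unequal numbers of clusters, 2 with DOP and 1 with vehicle, when peaks of a list within 1 kb of each other were chained. The summed scores were 582.0 (400 bp, mean 291) and 350.0 (200 bp, mean 350), a ratio of 1.66 at percentile 96.7 of all genes.

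The coactivator genes were the pair with the lowest summed scores of the 10 in both lists, at percentiles 29.5 and 18.4 of all genes with DOP and 10.9 and 12.5 with vehicle.

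Nrf1, which encodes nuclear respiratory factor 1, had the highest summed score of the 10 genes in both lists. The gene (ENSMUSG00000058440.7, mm9 chr6:29997988-30103458, plus strand) had 3 DOP-treated peaks with scores of 1480, 1676 and 1329 at percentiles 96.4, 97.8 and 94.5. With vehicle it had 4 peaks, with scores of 1484, 1291, 1306.8 and 929.2 at percentiles 96.2, 94.1, 94.4 and 85.6. All were shared, and they covered the stretch from about 209 bp upstream of the first start to 718 bp downstream of the nearest start. The upstream interval, whose centres in the lists were 6 bp apart, is shown with its GC box in capitals.
Nrf1, DOP-treated peak upstream of the first start, chr6:29997680-29997879, plus strand: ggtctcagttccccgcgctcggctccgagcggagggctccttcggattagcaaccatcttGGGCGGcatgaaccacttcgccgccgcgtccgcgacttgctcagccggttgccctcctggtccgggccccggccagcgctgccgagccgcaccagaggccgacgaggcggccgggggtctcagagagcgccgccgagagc
The summed score was 4485.0 with DOP (600 bp, mean 1495) and 5011.0 with vehicle (796 bp, mean 1253), a ratio of 0.895 at percentile 11.6 of all genes. It ranked at percentile 93.6 of all genes with DOP and 95.9 with vehicle. The starts further inside the gene, 28333 bp or more from the first, had no peak within 27452 bp in either list.

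At Tfam the lists divided the same stretch differently. The gene (ENSMUSG00000003923.8, mm9 chr10:70688212-70701028, minus strand) had 1 DOP-treated peak with a score of 1315 (percentile 94.3), 475 bp downstream of the first start. With vehicle it had 3 overlapping peaks with scores of 453.8, 623.5 and 287.7 (percentiles 55.7, 70.1 and 36.7), in a coding exon, an intron and an untranslated region. Each overlapped the DOP-treated peak. The sums were alike, 1315.0 with DOP over 200 bp and 1365.0 with vehicle over 438 bp, while the means were 1315 and 455. The ratio of 0.963 lay at percentile 23.4 of all genes, so 3 vehicle peaks and 1 DOP-treated peak had nearly equal sums.

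Nfe2l2, the gene of NRF2 (ENSMUSG00000015839.6, mm9 chr2:75513570-75542698, minus strand), held the DOP-treated peak with the highest score of all members. That peak lay 240 bp downstream of the nearest start with a score of 1795.8 (percentile 98.4, place 537 of the list). In the vehicle list the same stretch held a pair of peaks with scores of 446 and 1287.2 (percentiles 54.9 and 94.0), which sum to 1733.2. A further DOP-treated peak 755 bp downstream had a score of 1025.2, where vehicle had peaks of 590.6 and 376.2. Upstream of the first start the DOP-treated list had peaks of 233.5 and 286.5 and the vehicle list 1 peak of 295.5. All 4 DOP-treated and 5 vehicle peaks were shared, and the sums were 3341.0 (707 bp, mean 835) and 2995.5 (802 bp, mean 599), a ratio of 1.12 at percentile 59.6.

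Keap1, the gene of the adaptor that holds NRF2 for degradation (ENSMUSG00000003308.8, mm9 chr9:21034174-21043776, minus strand), had all its peaks in the annotated 5′ untranslated region. With DOP they lay 110, 401 and 717 bp downstream of the start, with scores of 708, 784.5 and 1214.5 at percentiles 73.9, 78.1 and 92.6. With vehicle they lay 401 and 854 bp downstream, with scores of 899.2 and 1221.8 at percentiles 84.5 and 92.9. The peak nearest the start was in the DOP-treated list only, 291 bp from the nearest vehicle centre, and the middle peak had the same centre in both lists. The sums were 2707.0 (600 bp, mean 902) and 2121.0 (400 bp, mean 1060), a ratio of 1.28 at percentile 82.9. The peaks of Keap1 were thus more numerous but not higher with DOP.

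Sod1 and Sod2 encode the cytosolic and the mitochondrial superoxide dismutase, which turn superoxide into hydrogen peroxide. Sod1 (ENSMUSG00000022982.9, mm9 chr16:90220987-90226567, plus strand) had 5 DOP-treated peaks between 209 and 1712 bp downstream of its start, with scores of 558, 744, 545.7, 365.2 and 163. Its 4 vehicle peaks lay between 275 and 1689 bp downstream, with scores of 1207.3, 711.7, 247 and 132. All lay in introns, and 1 peak in each list had no counterpart, at 893 bp with DOP (percentile 44.0) and 1163 bp with vehicle (percentile 31.5). The highest vehicle peak, at percentile 92.7, faced a pair of DOP-treated peaks at percentiles 63.5 and 75.9 whose scores sum to 1302.0. The interval of the higher of this pair is printed because it holds cores of the antioxidant response element, TGACNNNGC in either orientation, in capitals with the GC boxes.
Sod1, DOP-treated peak, chr16:90221193-90221392, plus strand: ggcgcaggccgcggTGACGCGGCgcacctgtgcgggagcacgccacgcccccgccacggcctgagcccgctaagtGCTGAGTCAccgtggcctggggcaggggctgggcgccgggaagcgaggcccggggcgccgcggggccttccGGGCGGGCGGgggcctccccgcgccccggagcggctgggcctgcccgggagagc
The cores read TGACGCGGC and GCTGAGTCA, the latter on the opposite strand, and begin at bases 15 and 76 of the interval. The summed scores of Sod1 were 2375.9 (896 bp, mean 475) and 2298.0 (800 bp, mean 574), a ratio of 1.03 at percentile 40.5 of all genes.

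Sod2 (ENSMUSG00000006818.4, mm9 chr17:13200705-13210985, plus strand) had 3 DOP-treated peaks, 311, 450 and 942 bp downstream of its start, with scores of 418.5, 466.9 and 208.6 (percentile 55.0 for the highest and 24.6 for the lowest). Its vehicle peaks, 327 and 905 bp downstream, had scores of 805 and 291 (percentiles 80.4 and 37.1). As at Sod1, the higher vehicle peak faced a pair of DOP-treated peaks, here summing to 885.4. All were shared. The sums were 1094.0 (539 bp, mean 365) and 1096.0 (400 bp, mean 548), a ratio of 0.998, so the top score of Sod2 was lower with DOP while the sum was nearly equal.

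Hmox1, the gene of haem oxygenase 1, which degrades haem and is a classical target of NRF2 and of its rival BACH1, was the only member that had, within the 10 kb window, peaks more than 2 kb from its starts. With a window of 20 kb further peaks were counted at Hmox1 (9 with DOP and 7 with vehicle), Sod2 (6 and 6), Nfe2l2 (6 and 6) and Keap1 (5 and 3). The gene (ENSMUSG00000005413.6, mm9 chr8:77617490-77624495, plus strand) had peaks in 3 clusters in both lists, and all were shared. At the start, the DOP-treated peaks had scores of 460.1 and 584.9 (percentiles 54.4 and 65.6) and the vehicle peaks 553.8 and 388.2 (percentiles 64.8 and 48.8), with sums of 1045.0 and 942.0. About 4 kb upstream, a peak had a score of 230 with DOP (4140 bp upstream, percentile 27.7) and 133 with vehicle (4202 bp upstream, percentile 15.8). Near the edge of the 10 kb window, a DOP-treated pair 9986 and 9818 bp upstream had scores of 108.4 and 157.6, summing to 266.0, and a vehicle peak 9925 bp upstream had a score of 143 (percentile 17.1). These upstream peaks had low scores in both lists. With DOP the score was higher at the nearer place, and at the farther place 1 of the 2 DOP-treated peaks scored above and 1 below the single vehicle peak.

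The mouse Hmox1 gene is known for distal enhancers upstream that hold repeated antioxidant response elements. The weak upstream peaks lay beside such repeats, and the adjoining stretches are therefore printed with their cores in capitals. This wider search around the upstream peaks was chosen after their positions were seen.
Hmox1, about 10 kb upstream, chr8:77607622-77607921, plus strand: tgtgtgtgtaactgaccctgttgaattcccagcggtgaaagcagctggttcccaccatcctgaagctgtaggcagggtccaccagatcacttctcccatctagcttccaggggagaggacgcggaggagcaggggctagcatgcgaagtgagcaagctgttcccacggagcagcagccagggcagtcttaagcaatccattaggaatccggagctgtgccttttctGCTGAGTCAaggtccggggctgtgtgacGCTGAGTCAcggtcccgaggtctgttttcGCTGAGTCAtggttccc
Hmox1, about 4 kb upstream, chr8:77613365-77613664, plus strand: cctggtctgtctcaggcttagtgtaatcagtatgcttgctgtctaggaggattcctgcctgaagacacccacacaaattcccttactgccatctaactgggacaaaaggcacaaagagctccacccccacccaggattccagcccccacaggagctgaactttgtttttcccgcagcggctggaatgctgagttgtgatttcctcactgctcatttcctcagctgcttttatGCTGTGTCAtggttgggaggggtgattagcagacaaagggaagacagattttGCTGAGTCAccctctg
The first stretch holds 3 cores that all read GCTGAGTCA, at 9642, 9614 and 9585 bp upstream of the first start. The second holds 2, which read GCTGTGTCA and GCTGAGTCA, at 3893 and 3841 bp upstream. None fell inside a peak interval. At the first stretch they began 76, 104 and 133 bp beyond the nearest DOP-treated interval and 183, 211 and 240 bp beyond the nearest vehicle interval, and at the second 147 and 199 bp and 209 and 261 bp. Among the peaks of the 10 genes, 6 of 31 DOP-treated peaks had 3 or more cores within 500 bp of the centre, 3 at Sod1, 1 at Sod2 and the 2 farthest upstream at Hmox1, and 3 of 29 vehicle peaks did, 2 at Sod1 and 1 at Hmox1. The Hmox1 peak about 4 kb upstream had 2 in both lists. Over all peaks the share with 3 or more was 1.26% with DOP and 1.20% with vehicle, and neighbouring peaks of a gene count the same cores. Over its whole window Hmox1 had summed scores of 1541.0 (946 bp, mean 308) and 1218.0 (752 bp, mean 304), a ratio of 1.27 at percentile 82.0. With only the peaks within 1 kb the ratio was 1.11.

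**Figure D2:**
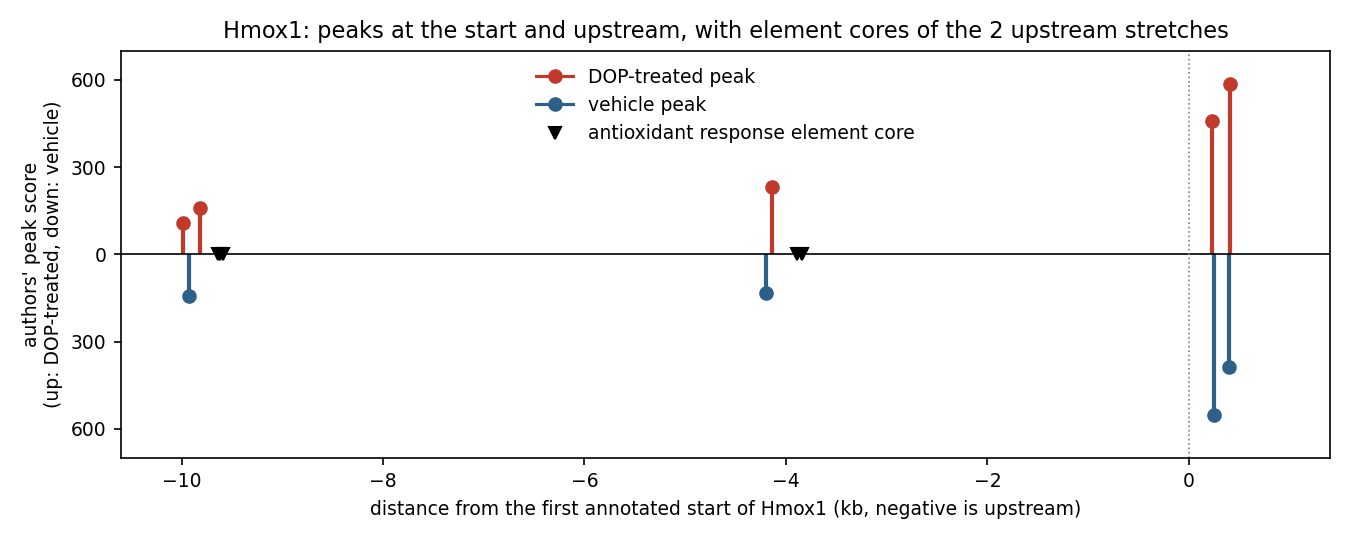
Distance from the first annotated start of Hmox1 in kb on the x axis and the score of each peak on the y axis, DOP-treated peaks upward in red and vehicle peaks downward in blue, with black triangles at the antioxidant response element cores of the printed stretches. The upstream peaks are low, with scores of 108.4 to 230 with DOP and 133 to 143 with vehicle, and the cores lie just downstream of them.

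Nqo1, which encodes a quinone reductase and is a standard readout of NRF2 activity (ENSMUSG00000003849.8, mm9 chr8:109912125-109927106, minus strand), was the only member with equal numbers of peaks. In both lists it had 1 peak in the gene and 2 upstream, and the paired centres were 26, 3 and 26 bp apart. The DOP-treated scores were 669, 494.7 and 479.3 (percentiles 71.5, 57.7 and 56.3), at 324 bp downstream and 346 and 628 bp upstream of the nearest start. The vehicle scores at these places were 562, 435.8 and 337.2 (percentiles 65.5, 53.9 and 42.7). All 3 scores were higher with DOP, and the sums of 1643.0 and 1335.0, each over 600 bp (means 548 and 445), gave a ratio of 1.23 at percentile 78.4 of all genes. No TGACNNNGC core lay within 500 bp of a peak centre of Nqo1 in either list, which does not show an absence of NRF2 binding there.

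Across the 10 genes, the number of peaks was higher with DOP at 6 (Ppargc1a, Ppargc1b, Keap1, Sod1, Sod2 and Hmox1), lower at 3 (Nrf1, Tfam and Nfe2l2) and equal at 1 (Nqo1). Over 13272 genes with a peak in at least 1 list, the number was higher at 32.5%, lower at 28.5% and equal at 39.0%. The difference was 1 peak at each of the 6 genes and at Nrf1 and Nfe2l2, and 2 at Tfam. These counts depended on the window. Within 1 kb, Ppargc1a and Hmox1 had equal numbers, and the number was higher with DOP at 4 genes and lower at 3. No shares over all genes are given for that window. When peaks within 1 kb were chained into clusters, 9 of the 10 genes had equal numbers, against 80.1% of all genes. Of the 9 genes with unequal numbers of peaks within 10 kb, 8 had equal numbers of clusters, the exception being Ppargc1b.

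**Figure D3:**
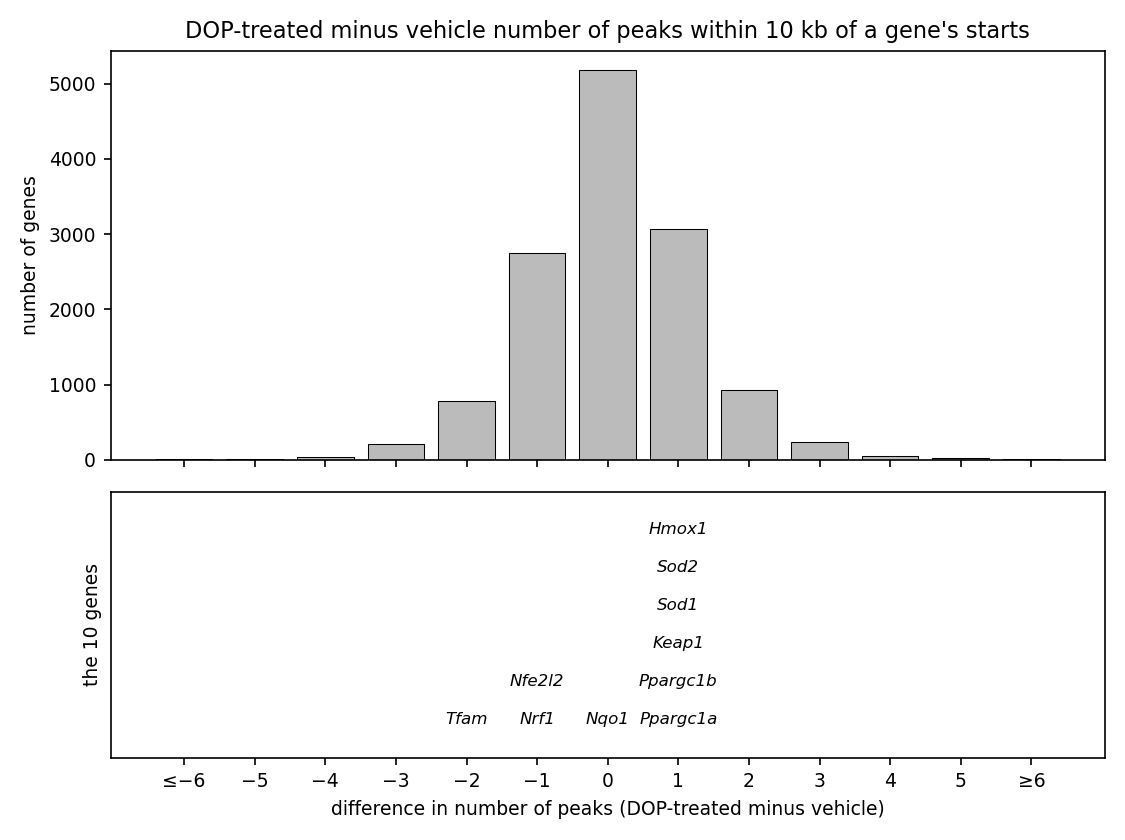
The upper panel counts all genes with a peak in at least 1 list by the DOP-treated minus the vehicle number of peaks (x axis), and the lower panel places the 10 genes on the same axis. Equal numbers are the most frequent outcome over all genes, with 5178 genes, and the 10 genes lie between 2 fewer peaks (Tfam) and 1 more.

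The summed score was higher with DOP at 7 genes and lower at 3 (Nrf1, Tfam and Sod2), where it was higher at 68.1% and lower at 31.7% of the 12375 genes with peaks in both lists. The ratio of the sums had a median of 1.07 over those genes, with quartiles of 0.971 and 1.20 and the highest 10% above 1.38. By definition 2 of 10 genes lie past the middle 80%, split evenly between the highest and the lowest 10%. Ppargc1a and Ppargc1b were the only members there, and both lay in the highest 10%. Both had few, low peaks, and among genes with a like combined sum Ppargc1a stood at percentile 99.6 and Ppargc1b at percentile 92.8. The upper quartile of the ratio was 1.28 among the genes like Ppargc1a and 1.12 among those with a sum like that of Nrf1. The order of the members by summed score was similar in both lists, from Nrf1 and Nfe2l2 at the top to the coactivator genes at the bottom. How far neighbours in this order differ beyond replicate error could not be measured with 1 list per condition.

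**Figure D4:**
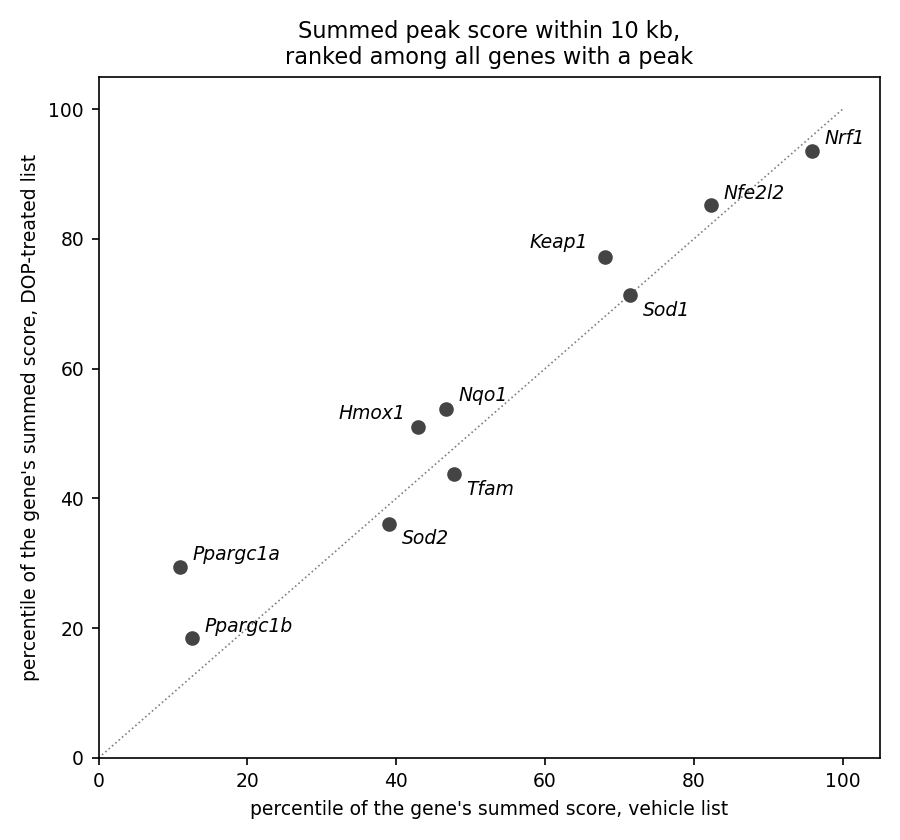
Percentile of the summed peak score of each gene among all genes with a peak, with the vehicle list on the x axis, the DOP-treated list on the y axis and a dotted line where both are equal. Ppargc1a lies furthest above the line, at 29.5 with DOP and 10.9 with vehicle, and Sod1 lies on it at 71.4 in both lists.

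The highest peak of a gene stood at a median percentile of 73.7 over the 10 genes with DOP and 75.2 with vehicle, where the median over all genes with a peak was 78.4 and 77.3. It was in the top 10% of its list at 4 genes with DOP (Nrf1, Tfam, Nfe2l2 and Keap1) and at 4 with vehicle (Nrf1, Nfe2l2, Keap1 and Sod1), where that held for 27.3% and 26.6% of all genes with a peak. The exchange of Tfam and Sod1 between these groups came at the genes where one list held a single high peak and the other several lower ones over the same stretch.

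The sequence under the peaks was searched on both strands for the TGACNNNGC core and the GC box given above, for the palindromic motif of nuclear respiratory factor 1, for TGACGTCA, the cAMP response element through which CREB acts on Ppargc1a, and for the E-box CACGTG. The core lay in 6 of 31 DOP-treated intervals (19.4%, at Keap1, Sod1 and Sod2) and in 7 of 29 vehicle intervals (24.1%, also at Tfam), where 8.20% and 7.97% of all peaks held it. Neighbouring peaks of a gene overlap and share their cores, so these counts are not independent. The GC box lay in 10 DOP-treated (32.3%) and 12 vehicle intervals (41.4%), against 28.5% and 29.3% of all peaks. No interval of either list at these genes held the other 3 motifs, which are rare in peaks, at 0.108% and 0.105% for nuclear respiratory factor 1, 0.213% and 0.228% for the cAMP response element and 3.30% and 3.37% for the E-box. The median GC content was 62.0% in the members' intervals of both lists and 59.5% over all peaks.

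RefSeq promoters on GRCm38.p6, from 250 bases before to 50 after the start, matched 8 of the 10 genes. The TGACNNNGC core was in those of 2, Nfe2l2 and Sod1, where 12.4% of 32851 promoters held it, and the GC box in those of 7, all matched genes but Ppargc1a, against 35.7%. The nuclear respiratory factor 1 motif, the cAMP response element and the E-box were in none, where 0.971%, 1.79% and 7.15% of all promoters held them. Only the exact letters were sought, so these promoters, that of Tfam included, may hold other forms of the sites. A match marks letters in a window and not a bound site.

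Other genes of the same pathways were counted for context. Of 37 further genes of the NRF2 pathway and of antioxidant enzymes, 36 (97.3%) had a peak in each list and 35 in both. Over all protein-coding genes 57.7% had a DOP-treated and 56.9% a vehicle peak. With each peak given only to its nearest gene, 35 had a DOP-treated and 34 a vehicle peak, so some peaks lay nearer to another gene. The exceptions were Slc7a11, a cystine transporter subunit, with a DOP-treated peak only (percentile 10.7), and Nfe2l3, a relative of NRF2, with a vehicle peak only (percentile 13.6). The number of peaks was higher with DOP at 15, lower at 9 and equal at 13, with 27 of 37 equal in clusters. Over all genes with a peak in at least 1 list these shares were 32.5%, 28.5%, 39.0% and 80.1%. The largest differences towards more peaks with DOP were at Bach2, a repressor of the BACH family, with 6 against 3, and at Prdx2, a peroxiredoxin, with 13 against 10. The largest towards fewer were at G6pdx, glucose-6-phosphate dehydrogenase, with 1 against 3, and at Gpx1, a glutathione peroxidase, with 6 against 8.

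Of 25 further genes of mitochondrial biogenesis, 24 (96.0%) had a DOP-treated peak and 23 (92.0%) a vehicle peak, against 57.7% and 56.9% of all genes. With each peak given only to its nearest gene, 22 had a DOP-treated and 21 a vehicle peak. Mef2c, a transcription factor, had a peak with DOP only (percentile 5.10) and Esrrg, an orphan nuclear receptor, had none in either list. The number was higher with DOP at 8, lower at 5 and equal at 11, and equal in clusters at 20. The shares over all genes are those given for the preceding list. The largest differences towards more peaks with DOP were at Prkaa1, a catalytic subunit of AMP-activated kinase, with 6 against 2, and at Peo1, the mitochondrial DNA helicase Twinkle, with 7 against 4. The largest towards fewer were at Pprc1, the third member of the PGC-1 family, with 14 against 18, and at Gabpb2, a subunit of nuclear respiratory factor 2, with 1 against 3. The peaks at Slc7a11, Nfe2l3 and Mef2c, the genes with a peak in 1 condition only, were low in their lists, at percentiles of 5.10 to 13.6.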

How the data were processed

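H3K9ac ChIP-seq libraries of 2 replicates per condition were made with the NEBNext Ultra kit. Alignment to mm9 used Bowtie 2 by the methods of the study and BWA 0.7.10 by the submitters' processing notes, and peaks were called with GPS. How replicates and the IgG library entered the call is not given in the sources used here. The deposited score of each peak has no definition in the files and was used as the authors gave it. Read depth is unknown, so its precision could not be given.

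Peaks were assigned to genes of GENCODE vM1 (mm9) within 10 kb of any start, and a peak may count for several genes. No peak lay past a chromosome end of the genome used (0 peaks). All 10 genes are named, with companion genes that have peaks in 1 list only or in none and the 2 largest differences each way. Members and lists were chosen with earlier results of these data known. Promoter sequences came from RefSeq. 1 marker gene is not reported here. No test between conditions was run. The counting scripts were checked on made-up peaks with known answers. Windows, overlap rules and score limits were varied. Python 3.11.15, numpy 2.4.6, scipy 1.17.1 and matplotlib 3.10.9 were used.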

Additional observations from a re-analysis of the deposited data

How the results depend on the processing

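No paired analysis was possible because each condition had 1 pooled list, and for the same reason no replicate could be left out. Of 146 values recomputed under another setting, 96 stayed within their limit and 50 did not. The limit for a count was 1.5 times, and 78 of 104 counts stayed within it. The limit for a percentile was so tight that small shifts also counted as outside. With DOP, the top percentile among peaks within 1 kb of a start moved from 97.8 to 97.3 at Nrf1. At Ppargc1b it moved from 48.3 to 10.1, and both counted as outside. With 10 kb upstream only, there were 11 DOP-treated and 10 vehicle peaks at 6 and 5 genes. In the top 50% by score there were 20 and 17 peaks, of which 3 and 0 were in 1 list only. Chained into clusters there were 13 and 12. Peaks in 1 list only numbered 8 and 6 by reciprocal overlap of 50%, 2 and 0 by centres within 500 bp or 1 kb, and 0 and 0 within 2 kb, and 1 vehicle peak with a window of 1 kb. The median top percentile was 67.4 and 75.9 among peaks within 1 kb of a start, and 80.4 for vehicle with a window of 1 kb, where Ppargc1b had no vehicle peak. With windows of 1, 5 and 20 kb, the number of peaks was higher with DOP at 4, 5 and 5 genes and lower at 3, 3 and 2. Equal numbers held at 3, 2 and 3 genes, and these settings were chosen after the data were seen. In 1000 bases around the first start 5 of 10 genes held the TGACNNNGC core and 2 the E-box, against 33.6% and 17.0% of all genes. Within 500 bp of the centre, also chosen after the data were seen, 21 of 31 DOP-treated and 19 of 29 vehicle peaks held the core, against 34.5% and 34.6% of all peaks. Neighbouring peaks of a gene count the same cores, so these peaks are not independent. No peak of Ppargc1a, Nrf1 or Nqo1 held a core within that distance. Wider windows and looser overlap contain the narrower ones by construction. With 1 list per condition and no read depth, neither replicate spread nor a difference in calling between the lists could be measured.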

Other observations

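The scores of neighbouring peaks were tied to each other. A decimal was present in 19523 DOP-treated (56.9%) and 19255 vehicle scores (57.7%). Where peaks with centres within 1 kb were chained, clusters of 2 or more peaks with such a score summed to a whole number, within 0.05, in 7561 of 8203 cases (92.2%) with DOP and 7378 of 8051 (91.6%) with vehicle, where 10% would do so if last digits fell evenly. At the 10 genes, the sum over the gene was whole at 5 of 6 genes with a decimal score in the DOP-treated list and at 6 of 7 in the vehicle list. At Tfam the 3 vehicle scores of 453.8, 623.5 and 287.7 sum to 1365.0. What the score counts is not given in the sources used here.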
